A study of Homo sapiens with 4 samples.

Results

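The genes described here encode the 3 E proteins and 7 of their partners in blood cell transcription: TCF3, TCF4 and TCF12, then TAL1, LYL1, LMO2, LDB1, ERG, FLI1 and GATA2. Their H4K20me1 peaks were all rows of the deposited peak table whose nearest gene was 1 of these 10 symbols, so that rows were picked by gene name. This gave 29 of 25514 peaks, of which 27 lay in a promoter or gene body and 2 were distal intergenic. The 27 are the peaks counted below, and the 2 distal ones are given apart. Of the 10 genes, 9 had at least 1 peak and TAL1 had none. Of all 20052 protein-coding genes 41.1% overlapped a peak, and 64.6% of those of 200 kb or more.

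The mark, monomethylation of lysine 20 on histone H4, was mapped by CUT&Tag, in which an antibody brings the Tn5 transposase to marked chromatin and the cut fragments are sequenced. All 4 libraries came from Kasumi-1, an acute myeloid leukemia cell line with the t(8;21) translocation, and each used 100000 cells. The 2 controls carried a non-targeting guide (sgNT, genotype WT), and in the 2 others SETD8 was knocked out with CRISPR/Cas9 (sgSETD8). SETD8 (KMT5A) is the methyltransferase that writes this mark. In each group 1 library bears the mark #2, and the labels do not say whether that is another guide or another culture, nor whether cells were clonal or pooled. The table has 1 column per group, so there is no replicate spread for any value and no test of the conditions could be made. It does not say whether a column holds 1 library or both. It does not name the groups either, which are therefore called by their column, first and second. Since the comparison's name lists treated ahead of control, the knockout may be the first column, but no header states this. The table holds no expression values, so the cell line was not checked against its markers.

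E proteins are basic helix-loop-helix factors that bind the E-box as dimers, with each other or with tissue-specific partners such as TAL1 and LYL1. LMO2 and LDB1 bind no DNA themselves and bridge such dimers to GATA factors. The t(8;21) fusion AML1-ETO (RUNX1-RUNX1T1) is known to sit on chromatin in a complex with TCF12, TCF3, LYL1, LMO2 and LDB1, beside the ETS factors ERG and FLI1. H4K20me1 is typically found over the bodies of transcribed genes and on compacted chromatin.

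Whole reads were recovered from the deposited log2 values, 2791207 in the first column and 2682916 in the second, with a median of 72 per peak in each. A log2 fold change below is the value of the first column minus that of the second, as the authors scaled them. Its exact Clopper-Pearson 95% interval covers counting error only. Among low read numbers (2 to 7) even ones were in excess, 75.5% of 237 values in the first column and 86.9% of 222 in the second. Both ends of a fragment may therefore have been counted, so an interval with reads taken as pairs is given where it matters. Scaling to equal reads in peaks moves every log2 fold change by −0.11, which takes the median of all peaks from 0.06 to −0.054.

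Of the 27 peaks, 10 were within 1 kb of the start of some transcript in the authors' annotation. The RefSeq promoter windows used here (GRCh38.p14) run from 250 bases before a start to 50 after it, and 26 of them belong to 8 of the 10 genes. FLI1 and LMO2 have no window among them, so the next counts leave both out. Of the 26 windows, 1 overlapped a peak, that of LYL1. Among all windows of protein-coding genes 20.1% of 22048 did so. Windows of 1 gene are not separate cases, and TCF4 alone has 10 of the 26. By gene, it was 1 of the 7 members with both a window and a listed peak, beside 48.9% of 6077 such protein-coding genes. The member shares are only a description, since they lack 2 genes. The promoter peak of LMO2 (33891356 to 33892074) reaches almost to the end of that gene's RefSeq span at its start (33892076). The closest of the other windowed starts were a TCF12 start, 291 bases before a peak, and the GATA2 starts, 327 bases upstream of one peak and 408 bases downstream of another. The 250 bases before 3 starts are shown to set a promoter inside a peak (LYL1) beside one at a peak's edge (GATA2) and one far from any peak (TAL1). Capitals mark the E-box CANNTG, the RUNX site TGTGGT, the ETS core CGGAAG and the GATA sites AGATAA and TGATAA on either strand, and no matches overlap each other. Sequences run 5′ to 3′ on the gene's strand, which is the minus strand in all 3.
LYL1, chr19:13102859-13103108: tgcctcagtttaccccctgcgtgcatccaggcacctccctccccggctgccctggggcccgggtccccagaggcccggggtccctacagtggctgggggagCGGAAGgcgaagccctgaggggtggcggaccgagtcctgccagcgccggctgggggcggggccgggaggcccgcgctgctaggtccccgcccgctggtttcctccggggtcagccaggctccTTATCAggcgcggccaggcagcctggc
GATA2, chr3:128488531-128488780: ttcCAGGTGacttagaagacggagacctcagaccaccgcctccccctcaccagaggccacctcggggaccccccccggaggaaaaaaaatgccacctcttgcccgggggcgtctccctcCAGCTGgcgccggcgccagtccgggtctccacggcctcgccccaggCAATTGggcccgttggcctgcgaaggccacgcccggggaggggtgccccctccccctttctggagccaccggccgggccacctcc
TAL1, chr1:47232336-47232585: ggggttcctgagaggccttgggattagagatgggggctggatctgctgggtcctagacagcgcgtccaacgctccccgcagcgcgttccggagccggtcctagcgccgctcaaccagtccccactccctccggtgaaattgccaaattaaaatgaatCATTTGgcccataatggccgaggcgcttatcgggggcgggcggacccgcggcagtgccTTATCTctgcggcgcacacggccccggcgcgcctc
The LYL1 stretch held 1 ETS core and 1 GATA site, the GATA2 stretch 3 E-boxes, and the TAL1 stretch 1 E-box and 1 GATA site. Of 34943 RefSeq stretches of this length, 61.8% held an E-box, 16.4% the ETS core, 14.6% a GATA site and 10.99% the RUNX site. The 26 member stretches held them in 13, 1, 6 and 1 cases. The 1 with a RUNX site was a second TAL1 promoter, which held it 3 times, as few stretches did (27 of 34943 had 3 or more). Stretches before neighbouring ERG starts overlap each other, so the GATA site and E-boxes that they share were counted in each.

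In each of the 9 genes with a peak, the values in both columns were as follows, starting with the E proteins. TCF3, which encodes E12 and E47 by alternative splicing and spans 43.3 kb of chromosome 19, had 4 peaks that covered 18.3% of the gene. Its 3 deep peaks were nearly level between the columns. The promoter peak of a short transcript (1617381 to 1619105) held 199 reads in the first column and 205 in the second, a log2 fold change of 0.02 (interval −0.27 to 0.30). The peak over exon 4 of 19 (1630862 to 1632789) held 218 and 232 reads (−0.03, −0.31 to 0.24). The widest, 3161 bp and 2 to 3 kb inside another start (1644492 to 1647652), held 214 and 255 (−0.20, −0.46 to 0.07). All 3 intervals include 0. The exception was a shallow peak in intron 3 of 16 (1628166 to 1629275), with 15 reads against 37.

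That intron peak had the widest gap of all 27, a log2 fold change of −1.25 (interval −2.22 to −0.35). It was lower in the first column by a factor of 2.38 and stood 116th from the bottom of the 25514 peaks. It was also the thinnest of the member peaks, with 22.8 scaled reads per kb. With reads taken as pairs its interval included 0 (−2.52 to 0.16). In the authors' deposited table, made with DESeq per the submitters' processing notes, its unadjusted p was 0.00967 and its adjusted p 0.877. At an unadjusted limit of 0.05 it was the only one of the 27 peaks, against 1.69% of all peaks lower and 3.37% higher in the first column at that limit. At an adjusted p of 0.05 there were 0 member peaks and 0 in the whole table (0%).

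TCF4, the E protein E2-2, is known for its role in plasmacytoid dendritic cells. It spans 413.8 kb of chromosome 18 and carried 2 peaks, both in intron 3 of 17, that covered 0.835% of the gene. The wider one (55498085 to 55500635) held 57 reads against 92 (−0.63, interval −1.14 to −0.14, or −1.39 to 0.05 with reads taken as pairs). The other (55526341 to 55527245) held 37 against 36 (0.10, −0.61 to 0.80). The mark over TCF4 was thus thin in both columns, 31.4 scaled reads per kb of peak on average against a median of 77.6 over the 19703 promoter and body peaks of the table. No other gene's peak lay within 1 Mb. None of its 10 RefSeq promoter windows overlapped a peak, and the nearest peak edge was 10.1 kb from a start.

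TCF12, which encodes HEB, spans 373.2 kb of chromosome 15 and carried 5 peaks. In genome order they held 58, 43, 70, 62 and 40 reads in the first column and 56, 61, 88, 46 and 56 in the second. The first is 904 bp after a start, the next 3 are in introns 3, 4 and 5 of 20, and the last is 744 bp before the start of a short transcript. The log2 fold changes were 0.11, −0.45, −0.27, 0.49 and −0.43, so that neighbouring peaks of the same gene went opposite ways. All 5 intervals include 0. The intron 5 peak (57111379 to 57112684) was highest (−0.09 to 1.07) and the intron 3 peak (56926049 to 56927060) lowest (−1.05 to 0.14).

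Over the 3 E protein genes, 7 of 11 peaks were lower and 4 higher in the first column, and 10 were lower with scaling to equal reads in peaks. Summed, they held 1013 reads against 1164, a log2 ratio of −0.14 (interval −0.27 to −0.02, but −0.32 to 0.03 with reads taken as pairs). By gene the ratios were −0.12 for TCF3 (−0.27 to 0.04), −0.11 for TCF12 (−0.35 to 0.13) and −0.39 for TCF4 (−0.79 to 0.01). Each of the 3 gene intervals includes 0 as the authors scaled the columns. With scaling to equal reads in peaks, and reads taken singly, those of TCF3 (−0.39 to −0.08) and TCF4 (−0.90 to −0.11) lie below 0. That of TCF12 (−0.47 to 0.01) still includes it.

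**Figure D1:**
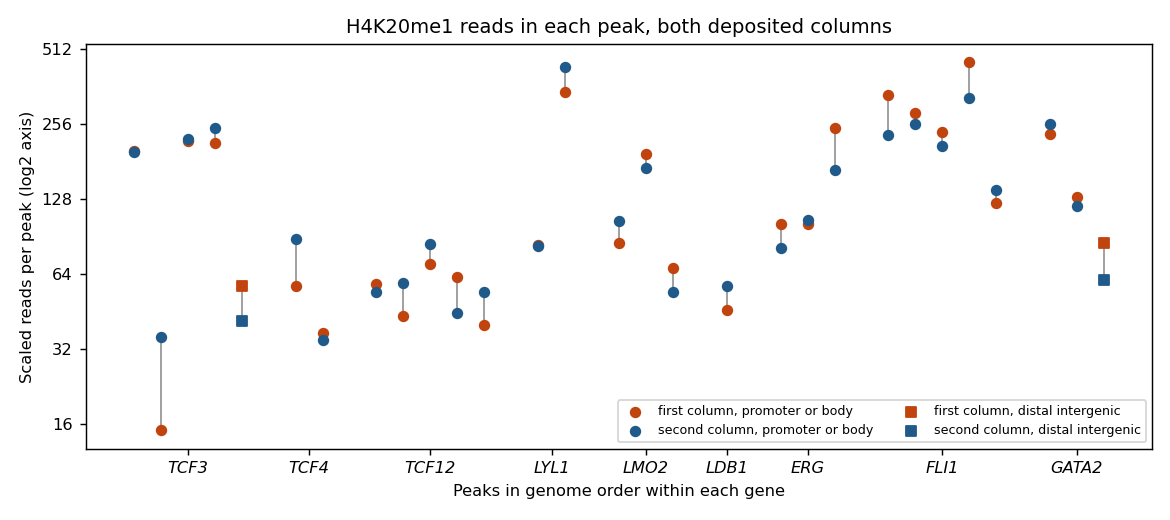
Scaled reads (log2 axis) in each of the 29 peaks, in genome order within each gene, for the first (red) and second (blue) column, with a grey line joining the 2 values of a peak and squares for the 2 distal intergenic peaks. FLI1 and the LYL1 promoter hold the deepest peaks, the TCF4 and TCF12 peaks all lie under 100 reads, and the shallow TCF3 intron peak (15 and 37 recovered reads) shows the widest gap.

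Among the class II partners of the E proteins, LYL1 had a peak over it and TAL1 had no listed peak. LYL1 is short (3.83 kb, chromosome 19), and 1 peak of 2980 bp (13100379 to 13103358) covered 64.8% of it, from 500 bases before the start to 2479 bases after. The peak held 345 reads in the first column and 451 in the second, a log2 fold change of −0.33 (interval −0.54 to −0.12, and −0.63 to −0.04 with reads taken as pairs). Its unadjusted p in the authors' deposited table was 0.337. The mark over LYL1 was dense, 131 scaled reads per kb, above 80.3% of promoter and body peaks. A second row listed under LYL1 (13089365 to 13089825, 84 and 86 reads, 0.02) lies in intron 8 of 9 of its neighbour NFIX, so it says nothing of the LYL1 gene itself.

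TAL1, the stem cell leukemia factor SCL, spans 16.05 kb of chromosome 1 (47216290 to 47232335). Its nearest peak was 47.6 kb away, at a promoter of STIL, with 46 and 42 reads. Among the 5824 protein-coding genes of 5 to 20 kb, 31.99% overlapped a peak, so a gene of this size without one was the more common case. The lack of a listed peak is no measure of how many reads fell on TAL1, which the table does not give.

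The bridging proteins had 4 peaks in all. LMO2, a LIM-only protein known from T cell leukemia, spans 33.5 kb of chromosome 11 and had 3. At its promoter (33891356 to 33892074) stood 67 reads against 56 (0.32), in intron 1 of 5 (33883971 to 33885783) 194 against 177 (0.19), and at its 3′ end (33858148 to 33859841) 85 against 108 (−0.29). All 3 intervals include 0, with the values higher in the first column toward the start and lower at the end. Summed they gave 0.08 (interval −0.14 to 0.30), a sign that turns with scaling to equal reads in peaks (−0.036). LDB1, the dimerizing adaptor of LIM domain proteins, had 1 narrow peak of 387 bp (chromosome 10, 102117557 to 102117943), 2.51 kb inside the start of one of its transcripts. It held 46 reads against 59 (−0.30, −0.89 to 0.28), and at this depth no difference was detectable.

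The ETS factors were the only role with a summed ratio whose interval lay above 0. Of 8 peaks listed under ERG and FLI1, 6 were higher in the first column and 2 lower, also with scaling to equal reads in peaks. Their reads summed to 1879 and 1576, a log2 ratio of 0.31 (interval 0.21 to 0.41, and 0.17 to 0.45 with reads taken as pairs). Peaks over FLI1 that are listed under SENCR, described below, are not in this sum. Those gave a lower ratio, 0.18 (interval 0.09 to 0.27). Over all promoter and body peaks the ratio of summed reads was 0.14. The other roles all lay below that level. They gave −0.14 for the E proteins, −0.27 for LYL1 with its row inside NFIX, 0.03 for the bridging proteins and −0.04 for GATA2. For the E proteins and LYL1 the whole interval lay below 0.14, also with reads taken as pairs. The difference between the roles was not tested.

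ERG, an ETS factor of stem cells and megakaryocytes, spans 294.5 kb of chromosome 21 and had 3 peaks. The one in intron 1 of 8 (38456126 to 38457879) held 246 reads against 173, a log2 fold change of 0.56 (interval 0.28 to 0.85, and 0.16 to 0.99 with reads taken as pairs). It was the highest of the 27, with an unadjusted p of 0.13 in the authors' deposited table. The promoter peak of an inner transcript (38448538 to 38449102) held 101 against 110 (−0.07, −0.47 to 0.34), and the intron 3 peak (38408268 to 38409316) held 101 against 85 (0.31, −0.12 to 0.74). None of the 3 was nearer than 40.6 kb to a start of its 4 RefSeq windows. Summed, ERG gave 0.34 (0.14 to 0.54), while the 21 other peaks within 1 Mb gave −0.10 (−0.18 to −0.02).

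FLI1, the ETS factor of the blood and endothelial lineages, had the most scaled reads per kb of peak among the members. It spans 128.1 kb of chromosome 11, and its 5 listed peaks averaged 158 scaled reads per kb. The intron 1 peak (128733195 to 128734746) held 335 reads against 240 (0.54, interval 0.29 to 0.78). A peak of 2816 bp annotated as 5′ untranslated region (128763353 to 128766168) held 452 against 339 (0.47, 0.27 to 0.68). Both intervals stayed above 0 with reads taken as pairs. Another such peak held 284 against 266 (0.15), the promoter of an inner transcript 237 against 218 (0.18), and a promoter near the gene's end 123 against 145 (−0.18). Unadjusted p-values of the 5 in the authors' deposited table started at 0.133.

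The nearest-gene rule gives only part of FLI1. Another 5 peaks over the gene are listed under SENCR, a noncoding RNA transcribed from the opposite strand near the FLI1 start, and 4 of them lie in intron 1 of 6 of FLI1. They held 214 to 996 reads in the first column and 182 to 902 in the second. Their log2 fold changes ran from −0.01 to 0.43, with 4 of 5 above 0. All 10 peaks together held 3585 reads against 3189, a log2 ratio of 0.23 (interval 0.16 to 0.30), in place of 0.30 (0.19 to 0.41) from the 5 listed under FLI1. SENCR spans 4.35 kb, and 1 of the 5 peaks overlaps it. CUT&Tag does not tell strands apart, so in that peak the mark cannot be given to one of these genes. The 10 peaks covered 14.6% of FLI1, against a median of 1.88% among marked protein-coding genes of 100 to 200 kb.

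**Figure D2:**
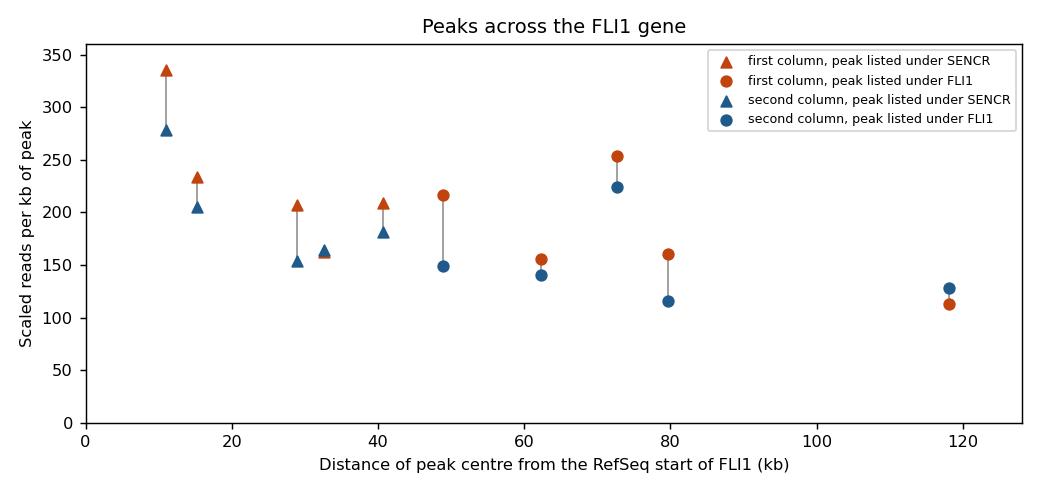
Scaled reads per kb of peak against the distance of the peak centre from the RefSeq start of FLI1, for the 10 peaks over the gene in the first (red) and second (blue) column, with triangles for peaks listed under SENCR and circles for those listed under FLI1. The first-column value is the higher in 8 of 10 peaks, and the peak farthest from the start has the lowest first-column value (113 reads per kb).

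GATA2, a zinc-finger factor needed for blood stem cells, spans 13.8 kb of chromosome 3 and had peaks on both sides of its promoters. The inner one (128486038 to 128488203), over the start of a short transcript, held 234 reads against 266 (−0.13, interval −0.39 to 0.13). The outer one (128493609 to 128495366), 424 bp upstream of the long transcript's start, held 130 against 124 (0.13, −0.24 to 0.49). They differ in sign, and neither interval leaves 0. Summed, GATA2 gave −0.04 (−0.25 to 0.17), while the 42 other peaks within 1 Mb gave 0.24 (0.19 to 0.29).

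The 2 distal intergenic peaks were both higher in the first column. One lies 29.7 kb upstream of GATA2 (128522873 to 128525079) with 85 reads against 63, a log2 fold change of 0.49 from a thin signal of 33.0 scaled reads per kb. The other lies 15.96 kb upstream of TCF3 (chromosome 19, 1668563 to 1669132) with 57 against 43 (0.46, interval −0.13 to 1.07). Added to its gene, the first turns the sign of the GATA2 ratio to 0.04.

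**Figure D3:**
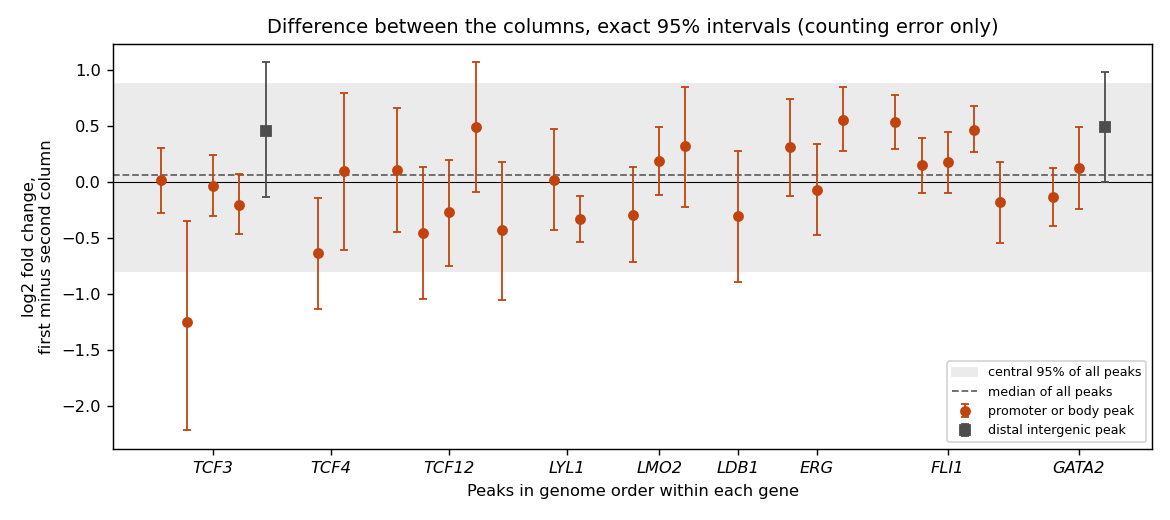
Log2 fold change, first minus second column, of the 29 peaks in genome order within each gene, with exact 95% intervals for counting error; squares are distal intergenic peaks, the band is the central 95% of all 25514 peaks (−0.79 to 0.88) and the dashed line their median (0.06). Of the 29 peaks, 28 lie inside the band, and the TCF3 intron 3 peak at −1.25 lies below it.

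Over the 27 peaks, the log2 fold changes had a median of 0.02 and quartiles of −0.28 and 0.19, beside 0.09, −0.15 and 0.35 over the 19703 promoter and body peaks of the table. They were above 0 in 14 and below in 13, and 10 and 17 with scaling to equal reads in peaks. Over all 25514 peaks 14839 were above 0 and 10444 below, or 11408 and 14106 with that scaling. A log2 fold change of at least 0.5 was reached by 2 member peaks, in ERG and FLI1 (13.9% of all peaks), and one of −0.5 or less by 2, in TCF3 and TCF4 (8.71%). At 1 or more stood none (1.55% of all peaks) and at −1 or less the TCF3 peak alone (0.909%). With 27 peaks, such counts are too small to tell from the shares of the table. Intervals leave 0 in 6 of 27 peaks, and in 4 with reads taken as pairs. The share of all peaks whose intervals leave 0 was not computed, so these counts are a description only.

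By gene, the summed ratio was above 0 in ERG (0.34), FLI1 (0.30) and LMO2 (0.08). It was below 0 in GATA2 (−0.04), TCF12 (−0.11), TCF3 (−0.12), LYL1 (−0.27), LDB1 (−0.30) and TCF4 (−0.39). Among genes of at least 100 reads in each column 67.1% of 4963 were above 0, with a median of 0.11 and quartiles of −0.06 and 0.29. Of the 7 members this deep, 3 were above 0, and none reached 0.5 in either direction (7.94% higher and 2.01% lower among the 4963). All 9 ratios lay inside the central 95% of those genes (−0.48 to 0.66). Of the 9 genes with a peak, 8 had peaks of both signs, LDB1 being the exception with a single one. In LYL1 the other sign came from the row inside NFIX, without which its ratio is that of its own peak (−0.33). With scaling to equal reads in peaks, all promoter and body peaks listed under TCF3, TCF4 and LYL1 were below 0. The share of all genes with peaks of both signs was not computed.

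**Figure D4:**
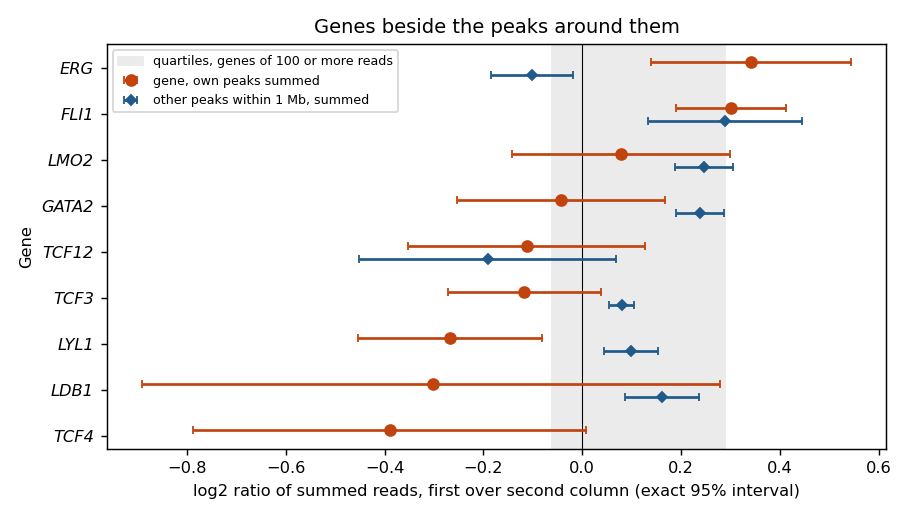
Log2 ratio of summed reads, first over second column, with exact 95% intervals for counting error. Red circles are the promoter and body peaks listed under each gene, which for LYL1 include the row inside NFIX. Blue diamonds are all other peaks within 1 Mb and outside the gene. The band spans the quartiles of genes with at least 100 reads per column. ERG (0.34) lies above its surroundings (−0.10), LYL1 (−0.27) and GATA2 (−0.04) lie below theirs (0.10 and 0.24), FLI1 (0.30) lies at the level of its own (0.29), and TCF4 has no other peak within 1 Mb.

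The peaks around each gene give a local reference, and the difference between a gene and its neighbours does not depend on the scaling between the columns. LYL1, with its row inside NFIX, differed from its 36 neighbours by −0.37 and ERG from its 21 by 0.44. In both the intervals of gene and surroundings do not overlap. The peak over LYL1 alone (−0.33, interval −0.54 to −0.12) does not overlap with the neighbours (0.04 to 0.15) either. TCF3 differed by −0.20 from 108 neighbours (0.08, interval 0.05 to 0.11) and GATA2 by −0.28 from 42, again without overlap. With reads taken as pairs the intervals of TCF3 (up to 0.10) and GATA2 (up to 0.26) reach those of their neighbours. FLI1 (0.013 from 10 peaks), TCF12 (0.08 from 3), LMO2 (−0.17 from 28) and LDB1 (−0.46 from 25) overlapped with theirs. These intervals hold no spread between libraries, so a gap between them is a difference between 2 columns and not yet one between conditions. How often other genes of the table differ in this way from their surroundings was not computed. Such gaps can therefore not be called particular to these genes.

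Per kb of peak, the mark was densest over FLI1 (158 scaled reads, averaged over both columns), LYL1 (137) and LDB1 (133), followed by ERG (119), GATA2 (94.2), TCF3 (85.0), LMO2 (79.7), TCF12 (54.9) and TCF4 (31.4). The peaks within a gene spread widely, from 120 to 239 in FLI1, 87.1 to 183 in ERG and 22.8 to 115 in TCF3. Adjacent genes in this order overlap in the range of their peaks, apart from TCF12 (40.6 to 91.6) and TCF4 (28.5 to 39.5) and leaving aside LDB1 with its single peak. The NFIX row is counted with LYL1 here. By annotation 12 of the 27 peaks were promoter peaks (44.4%, as in 44.4% of all promoter and body peaks), 11 intronic (40.7% against 47.1%), 2 in a 5′ and 1 in a 3′ untranslated region, and 1 exonic.

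Of 52 further genes of this pathway, 25 had a promoter or body peak, beside 41.1% of all 20052 protein-coding genes when counted by overlap. All 5 genes of the core binding factor and ETO family did, 6 of 9 cofactors and 5 of 7 other ETS factors. So did 2 of 8 other bridging proteins, 3 of 9 class II factors and 1 of 4 partners of the LMO2 complex. The same held for 2 of 6 blood cell factors and 1 of 4 ID genes, the inhibitors of E protein binding. In 19 genes with at least 100 reads per column, 13 ratios were above 0 and 6 below, with a median of 0.14, beside 67.1% above 0 and a median of 0.11 among all 4963 genes this deep. With scaling to equal reads in peaks 10 were above 0 and 9 below, beside 50.1% above 0 among all. None reached 0.5 in size as deposited, and EP300 (−0.55) did with that scaling. The 3 highest were PRMT1, an arginine methyltransferase (423 reads against 320, 0.46, interval 0.25 to 0.67), JMJD1C, a Jumonji-domain protein (0.39), and GABPA, an ETS factor (0.36). The 4 lowest were EP300, an acetyltransferase (163 against 229, −0.43, −0.73 to −0.14), MYB (−0.29), ZFPM1, the GATA cofactor FOG1 (−0.18) and CBFB, the partner of RUNX1 (−0.13). In the authors' deposited table, 9 of their 122 peaks passed an unadjusted limit of 0.05, 8 higher and 1 lower in the first column (3.37% and 1.69% of all peaks), and 0 passed an adjusted one (0% of all peaks).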

How the data were processed

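CUT&Tag for H4K20me1 was done on 2 libraries per group. Cutadapt, Bowtie2, DESeq and build hg38 are named in the submitters' processing notes, and for versions, peak caller and duplicate handling the entry is: not given in the sources used here. The authors deposited 1 table of peaks with log2 scaled reads in 1 column per group, the log2 fold change between them, and an unadjusted and an adjusted p-value. Headers are numbers alone, and the values showed what each column holds. Every low log2 value (1.5 to 5.5) equals log2 of a whole number plus 1 constant per column (0 and −0.057) within 0.0051, which gave the reads. Above that range rounding leaves an error of under 1% per peak.

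Peaks were assigned by the table's nearest gene. Reads were summed per gene, and intervals are exact Clopper-Pearson at 95%, for counting error only. Read recovery and intervals were tested on simulated data. The simulation drew reads independently of each other, so it cannot show how the intervals hold where reads come in pairs. RefSeq windows and gene spans are those of GRCh38.p14. The 10 members, the 52 related genes and the thresholds (0.5, 100 reads, 1 Mb) were chosen with earlier results of these data known. All members are named, and of the related genes at most the 4 highest and 4 lowest, of which 1 is not reported here. The labels do not state separate cultures for the libraries of 1 group. Alternatives covered scaling, assignment, distal peaks, signal and thresholds. Python 3.11.15, pandas 2.3.3 and scipy 1.17.1 were used.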

Additional observations from a re-analysis of the deposited data

How the results depend on the processing

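The median log2 fold change of the 27 peaks (0.02) was −0.094 with columns scaled to equal reads in peaks, −0.037 with no scaling and −0.11 as a median over genes of the summed ratio. Scaling subtracts 1 constant from every peak. For the median over genes, the cause was not tested. Without TCF3, chosen after seeing the data, it was 0.10. Peaks of at least 0.5 numbered 0 in place of 2 with equal reads in peaks, 1 with no scaling and 0 at a limit of 1. Those at −0.5 or less numbered 4 in place of 2 with equal reads in peaks, 3 with no scaling, 1 at or above the median signal, 1 at a limit of −1 and 1 without TCF3. Peaks past the authors' threshold numbered 0 at an adjusted p under 0.05 or 0.1, and 1 at an unadjusted p under 0.05. Of 37 values of the 9 gene ratios under alternatives, 34 kept their sign and stayed inside the counting interval of the deposited ratio. LMO2 turned to −0.036 with equal reads in peaks and GATA2 to 0.044 with its distal peak, both inside that interval, while FLI1 left it at 0.19 with equal reads in peaks. No paired analysis was possible because the table has 1 column per group. For the same reason no library could be left out. Peaks with fewer than 50 reads in a column have intervals of about 1 or wider on the log2 scale.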
